A study of Mus musculus with 6 samples.

Results

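The nuclear-encoded genes of the oxidative phosphorylation complexes were described in osteoblastic cells of mice that lack the Y1 receptor for neuropeptide Y. They were taken by symbol (Nduf with the letter a, b, c, s or v, Sdh, Uqcr, Cyc1, Cycs, Cox4 to Cox8 isoforms, and Atp5), from probe sets with exactly 1 gene symbol, with the probe set of highest mean for each gene. This gave 82 genes of the 19935 genes measured, namely 34 of complex I, 4 of complex II, 10 of complex III with cytochrome c, 17 of complex IV and 17 of complex V. Cox7c, Ndufb1 and Ndufb4 also match these symbols and were not analysed here. Ndufa4 is counted with complex I by its name, although its protein is known as a subunit of complex IV.

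The samples were 6 arrays of sorted cells from male mice, of which 4 came from the wild type (WT) and 2 from the Y1 receptor deficient line (Y1KO). Marrow stromal cells of the femora and tibias were kept in culture for 7 days, and cells positive for green fluorescent protein (GFP) were then sorted. Both genotypes carried the GFP transgene, which a 3.6 kb fragment of the rat alpha1(I)-collagen promoter drives, so the sort selects cells in which that fragment is active and no other lineage gate is named. Ages were not used here. Since no label ties an array to a single mouse or culture, a p-value here reflects how far these 6 arrays scatter, and that scatter may be technical.

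The respiratory chain of the inner mitochondrial membrane passes electrons from NADH (complex I) and succinate (complex II) through coenzyme Q to complex III, then through cytochrome c to complex IV, which reduces oxygen. The proton gradient that complexes I, III and IV build drives ATP synthesis by complex V. In osteoblasts, which make and secrete large amounts of collagen, both glycolysis and oxidative phosphorylation supply ATP, and their balance is known to shift with differentiation.

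The genes are scattered over the nuclear genome, and some of their promoters hold letters known from nuclear regulators of mitochondrial genes, which is why a few stretches are shown. RefSeq promoters of build GRCm38.p6, from 250 bases before to 50 bases after the annotated start, matched 67 of the 82 genes. The letters GCGCATGC, the core of sites bound by nuclear respiratory factor 1, were searched on both strands and stood in the promoters of 11 of the 67 genes (16.4%), against 4.27% of the promoters of all measured genes that matched. Stretches are shown for Cycs (cytochrome c, chr6:50566596-50566655, minus strand), Sdhb (the iron-sulfur subunit of complex II, chr4:140961191-140961250, plus strand), Atp5g2 (a gene for the membrane ring subunit c of complex V, chr15:102671056-102671115, minus strand) and Ndufa11 (an accessory subunit of complex I, chr17:56717676-56717735, plus strand), with the match in capitals. In Cycs and Sdhb the match is on the opposite strand, so the capitals read GCATGCGC. In Atp5g2 and Ndufa11 matches on both strands overlap, and the capitals cover both.
Cycs: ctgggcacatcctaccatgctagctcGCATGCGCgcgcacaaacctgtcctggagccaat
Sdhb: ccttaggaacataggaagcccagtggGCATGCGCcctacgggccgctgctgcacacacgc
Atp5g2: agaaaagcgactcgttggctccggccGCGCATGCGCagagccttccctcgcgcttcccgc
Ndufa11: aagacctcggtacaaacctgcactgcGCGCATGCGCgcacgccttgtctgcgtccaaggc
The capitals begin 60, 54, 42 and 60 bases before the annotated start of Cycs, Sdhb, Atp5g2 and Ndufa11.

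The letters CCGGAAG, known from sites of the ETS family to which the nuclear respiratory factor 2 subunit Gabpa belongs, stood in the promoters of 17 of the 67 genes (25.4%), against 13.6% of those of all measured genes. Cox6b1 (a small subunit of complex IV, chr7:30626115-30626174, minus strand) is shown as the example, with the match on the opposite strand in capitals, 28 bases before the start. The letters AAGATGGCG, known from sites of Yy1, stood in those of 7 genes (10.4%), against 2.29%, among them Ndufs4, the only member that passed the test described in the next paragraph. The stretch of Ndufs4 (chr13:114388045-114388074, minus strand) lies after the annotated start, and its capitals begin at transcribed base 36.
Cox6b1: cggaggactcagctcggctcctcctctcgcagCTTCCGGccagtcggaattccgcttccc
Ndufs4: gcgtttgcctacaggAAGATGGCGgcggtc
The other 6 genes with the Yy1 letters were Atp5j, Atp5j2, Ndufa9, Ndufc1, Ndufs6 and Ndufs7. The letters TGACCTTG of estrogen-related receptor sites stood in the promoters of 4 members (5.97%), Atp5g3, Atp5l, Ndufs5 and Sdhd, against 1.41%. These matches describe the letters only, and no binding was measured.

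The deposited values are log2 expression, and differences are given as Y1KO minus WT with the standard error (SE) of the limma fit. Between genotypes, the respiratory subunit genes differed little. Under limma with Benjamini-Hochberg adjustment over all 19935 genes, called at an adjusted p under 0.05, 1 of the 82 genes fell in Y1KO and 0 rose, whereas 6.64% of all genes fell and 6.1% rose. Counted in either direction, 1.22% of the members were called, against 12.7% of all genes. At an unadjusted limma p under 0.05 the count was 6 members (7.32%), against 24.3% of all genes. The median difference of the members was 0.06 on the log2 scale, against 0.01 over all genes, and 54 of the 82 differences (65.9%) were above 0, against 51.6% of all genes. Without WT replicate 2 the median of the members was 0.02.

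The 82 differences ran from -0.37 for Ndufs4 to 0.32 for Atp5g1. The median size of a difference without its sign was 0.083 for the members and 0.124 for all genes, while the median SE was nearly the same, 0.104 and 0.108. The 95% interval of the difference lay within a 1.5-fold change in either direction for 81 of the 82 genes (98.8%), against 79.7% of all genes, with Ndufs5 the exception. It lay within a 1.25-fold change for 31 of them (37.8%), against 31.5%. For most members, then, a change of 1.5-fold lay outside the interval, whereas a change of 1.25-fold often lay inside it.

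**Figure D1:**
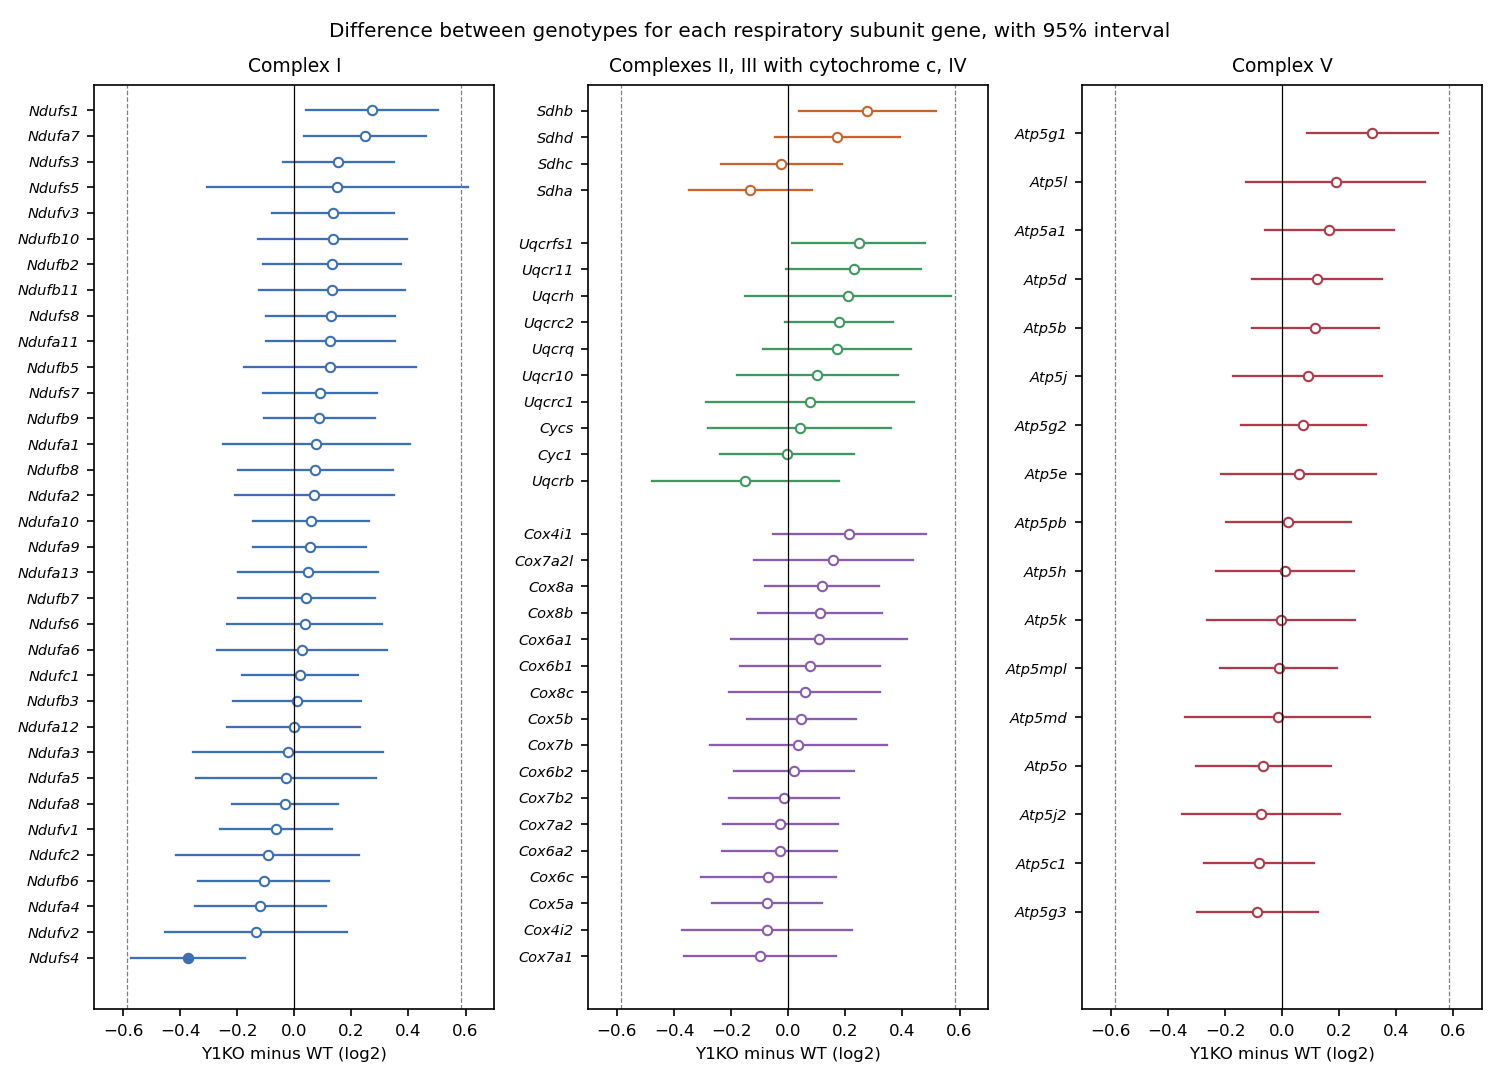
Differences between genotypes (Y1KO minus WT, log2, horizontal axis) for the 82 genes by complex, each with its 95% limma interval, where the filled point is the gene called at an adjusted p under 0.05 and dashed lines mark a 1.5-fold change. The points lie between -0.37 and 0.32, with Ndufs4 the single filled point.

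Complex I oxidises NADH and is the largest of the complexes. Its 34 measured genes had a median difference of 0.06, with 24 above 0 and 10 below. This median was 0.02, 0.10 and 0.04 when WT replicates 2, 3 and 4 were left out in turn. The 6 core subunits described here, which together carry the flavin and iron-sulfur centres, had a median of 0.11, and the 28 accessory subunits 0.05. Ndufs4 was the member that fell. It is an accessory subunit needed for a stable complex, and its loss is a known cause of complex I deficiency.

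Ndufs4 read 8.98, 9.06, 9.15 and 9.05 on WT arrays 1 to 4, and 8.70 and 8.67 on the Y1KO arrays. Both Y1KO arrays lay below every WT array, and the values within each genotype were close. The WT mean was 9.06 ± 0.07 (SD, n = 4), and that of Y1KO was 8.69 ± 0.02 (SD, n = 2). The difference was -0.37 (SE 0.09, limma adjusted p = 0.0262), 1.29-fold lower in Y1KO with a 95% interval of 1.13- to 1.49-fold. This call depends on single arrays, since the adjusted p was 0.129 and 0.191 when Y1KO replicate 1 or 2 was left out and 0.0521 when WT replicate 4 was, while the difference stayed between -0.40 and -0.31 in the 16 alternatives tried. With each array centred on its median the limma adjusted p was 0.0554, without moderation 0.0651 and with the replicate block 0.142. The block adds the replicate number to the model. Only numbers 1 and 2 occur in both genotypes, so WT replicates 3 and 4 do not enter the difference fitted with the block, which was -0.33.

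The genes beside Ndufs4 on the chromosome, in RefSeq order, differed more than Ndufs4 did in 4 of 8 cases. Those 4 were also the ones called, while 12.7% of all genes were called in either direction. The 8 genes were looked at because Ndufs4 was called, and the share of all genes that differ by more than Ndufs4 was not counted. The next gene on one side is Fst, which encodes follistatin, a secreted protein that binds activins. Fst read 9.43, 9.58, 9.40 and 9.28 in WT and 8.05 and 7.64 in Y1KO, and it fell 2.98-fold (difference -1.58, SE 0.13, limma adjusted p = 0.000376). Both Y1KO arrays lay more than 1 log2 unit below each WT array. Fst was called in all 16 alternatives.

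Snx18, a sorting nexin, fell as well (difference -0.63, limma adjusted p = 0.0354), as did Arl15, a small GTPase of the ARF family (-0.43, 0.0417). Itga2, the alpha subunit of a collagen-binding integrin, rose (0.73, 0.0492). These calls were lost in 4, 5 and 4 of the 6 fits that leave out 1 array, and over all alternatives they held in 10 of 16, 7 of 16 and 8 of 15. The remaining 4 neighbours, Hspb3, A430090L17Rik, 4930544M13Rik and Mocs2, had differences between -0.03 and 0.17 and were not called. None of the 8 gene models overlaps that of Ndufs4 in RefSeq, and whether the neighbours' differences and that of Ndufs4 are linked was not tested.

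**Figure D2:**
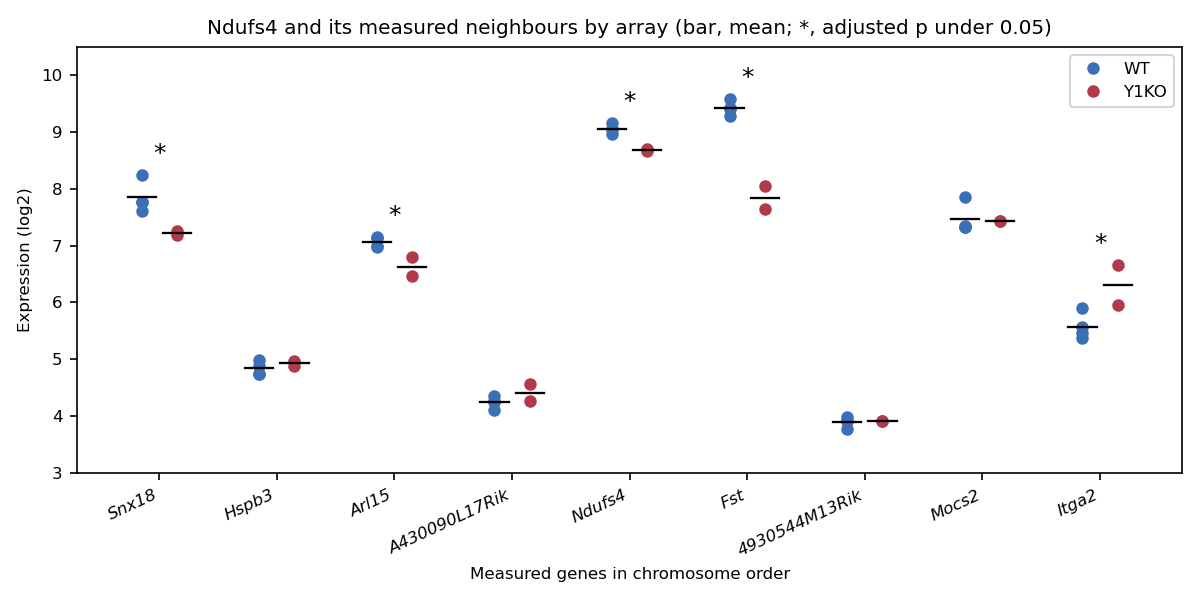
Expression (log2, vertical axis) of Ndufs4 and of the 4 measured genes on each side in RefSeq chromosome order (horizontal axis, evenly spaced), where each point is an array (4 WT, blue, and 2 Y1KO, red), bars are group means and a star marks a limma adjusted p under 0.05. The Y1KO points of Ndufs4 (8.70 and 8.67) and Fst (8.05 and 7.64) lie below all WT points of the same gene.

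Among the other complex I genes, Ndufs1, the largest core subunit, which carries iron-sulfur clusters, had the largest difference above 0. It read 9.06, 8.89, 8.79 and 9.01 in WT and 9.22 and 9.21 in Y1KO. Both Y1KO arrays lay above all WT arrays, but the difference of 0.27 (SE 0.10) had a limma adjusted p of 0.130.

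Ndufa7, an accessory subunit, read 6.55, 6.39, 6.62 and 6.48 in WT and 6.76 on both Y1KO arrays, a difference of 0.25 (limma adjusted p = 0.137). The groups did not overlap, and the interval of the difference, 0.03 to 0.46, barely excluded 0. Ndufs3, a core subunit of the peripheral arm, differed by 0.15 (adjusted p = 0.332 in limma), and Ndufv3, an accessory subunit of the flavoprotein part, by 0.14 (0.458). In complex I the Y1KO arrays were both above all WT arrays for 5 genes (Ndufs1, Ndufa7, Ndufs3, Ndufv3 and Ndufb9) and both below for 3 (Ndufs4, Ndufa4 and Ndufv1).

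Complex II, succinate dehydrogenase, links the citric acid cycle to the chain. Its 4 subunits differed in sign, and none passed the test. Sdhb read 8.98, 8.69, 8.83 and 8.72 in WT and 9.12 and 9.04 in Y1KO, which gives 0.28 as the difference (SE 0.11, limma adjusted p = 0.140). Sdha, the flavoprotein with the active site, read 10.10, 10.13, 9.97 and 9.93 in WT and 9.92 and 9.88 in Y1KO, a difference of -0.13 (limma adjusted p = 0.473). For Sdhb the Y1KO arrays were above all WT arrays and for Sdha below all of them, so the catalytic pair stood on opposite sides.

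Of the membrane anchors of complex II, Sdhd had a difference of 0.17 (limma adjusted p = 0.335) with no overlap between groups. Sdhc had a difference of -0.02 (0.920) with full overlap. The median over the 4 genes was 0.07, and 0.04 without WT replicate 1.

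Complex III passes electrons from coenzyme Q to cytochrome c. With cytochrome c it had the largest median of the groups, 0.14 over 10 genes, 8 of them above 0, and no gene called. One WT array reached the same height, since the median deviation from the WT mean was 0.17 on WT replicate 3. It was 0.16 and 0.14 on the Y1KO arrays. For 7 of the 10 genes the Y1KO mean lay inside the WT range. Uqcrfs1, the Rieske iron-sulfur protein, read 6.92, 6.85, 6.91 and 7.12 in WT and 7.14 and 7.26 in Y1KO, with 0.25 as the difference (SE 0.10, limma adjusted p = 0.180). The lower Y1KO array stood just above the highest WT array.

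Uqcr11, a small accessory subunit, differed by 0.23 (limma adjusted p = 0.225) and Uqcrc2, a core scaffold subunit, by 0.18 (0.241), both without overlap. Uqcrh, the hinge protein, differed by 0.21 and Uqcrq, the ubiquinone-binding subunit, by 0.17, both with overlap. Their WT arrays spread widely, with an SD of 0.27 for Uqcrh. At the other end, Uqcrb had a difference of -0.15, and Cyc1, which holds the haem that hands electrons to cytochrome c, one of -0.00. Cycs, cytochrome c itself, had a difference of 0.04. Its probe sets differed from each other in the size of the difference by up to 0.22. The other 16 members with several probe sets reached 0.05 at most. Mean levels of the 3 Cycs probe sets ran from 3.29 to 10.06, the highest being the one kept. The lowest level among the other 16 members was 6.95, in Uqcr11.

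Complex IV, cytochrome c oxidase, had a median difference of 0.04 over 17 genes, 10 above 0 and 7 below, and no gene called. This median was 0.01 when WT replicate 1 or Y1KO replicate 2 was left out and 0.00 when WT replicate 2 was. Several of its subunits exist as a general isoform and as isoforms known from heart and skeletal muscle, lung or testis. Cox4i1, the general isoform of subunit 4, read 9.15, 8.97, 9.32 and 8.95 in WT and 9.31 on both Y1KO arrays. WT array 3 stood as high as the Y1KO arrays, and the difference of 0.21 had a limma adjusted p of 0.324. Cox8a and Cox7a2l, a factor of supercomplex assembly, differed by 0.12 and 0.16, and Cox5a by -0.07.

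Neither the restricted nor the general isoforms passed the test. Cox4i2, known from lung, differed by -0.08, the muscle isoforms Cox6a2, Cox7a1 and Cox8b by -0.03, -0.10 and 0.11, and the testis isoforms Cox6b2, Cox7b2 and Cox8c by 0.02, -0.02 and 0.06. The general isoforms Cox6a1, Cox6b1, Cox7a2 and Cox7b differed by 0.11, 0.08, -0.03 and 0.04. Signals of different probe sets do not rank transcripts, but as a place on the array in WT, the 6 members whose signal lay below the median of all genes were all of complex IV, and Cox7b2, at percentile 7.35, was the only member below percentile 25.

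Complex V, the ATP synthase, had a median difference of 0.02 over 17 genes, 10 above 0 and 7 below. The sign of this median turned, to -0.02 with quantile normalization and to -0.00 without WT replicate 4. It was 0.00 when WT replicate 1 was left out, 0.07 when WT replicate 3 was and 0.09 when Y1KO replicate 2 was. The largest single difference was in Atp5g1, 1 of 3 genes that encode the same mature subunit c of the membrane ring and differ in their import sequences. Atp5g1 read 9.04, 8.99, 9.25 and 9.01 in WT and 9.41 and 9.37 in Y1KO. Both Y1KO arrays were above all WT arrays, and WT replicate 3 came nearest to them.

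The difference of Atp5g1 was 0.32 (SE 0.10, limma adjusted p = 0.0811), so it was not called. It was called without WT replicate 3, with a limma adjusted p of 0.0274, and also with median centring, a filter at percentile 60 and array weights. Its 2 probe sets gave nearly the same difference, 0.31 and 0.32. The other genes for subunit c differed less, Atp5g2 by 0.07 and Atp5g3 by -0.09, with overlap between the groups in both. Of the subunits alpha to epsilon, Atp5a1 (alpha) differed by 0.17, Atp5b (beta) by 0.12 and Atp5d (delta) by 0.12. None of these was called, although in all 3 the Y1KO arrays lay above all WT arrays. Atp5c1 (gamma) and Atp5e (epsilon) differed by -0.08 and 0.06, with overlap between the groups in both. Atp5l, subunit g of the membrane part, differed by 0.19 with overlap.

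Over all complexes, both Y1KO arrays lay above all WT arrays for 15 members (18.3%), against 17.5% of all genes, and below them for 5 members (6.1%), against 17.3%. In either direction this made 24.4% of the members, against 34.8% of all genes. By complex, the counts above and below were 5 and 3 in complex I, 2 and 1 in complex II, 3 and 0 in complex III, 1 and 1 in complex IV, and 4 and 0 in complex V. For 56 of the 82 genes the Y1KO mean lay inside the range of the WT arrays.

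**Figure D3:**
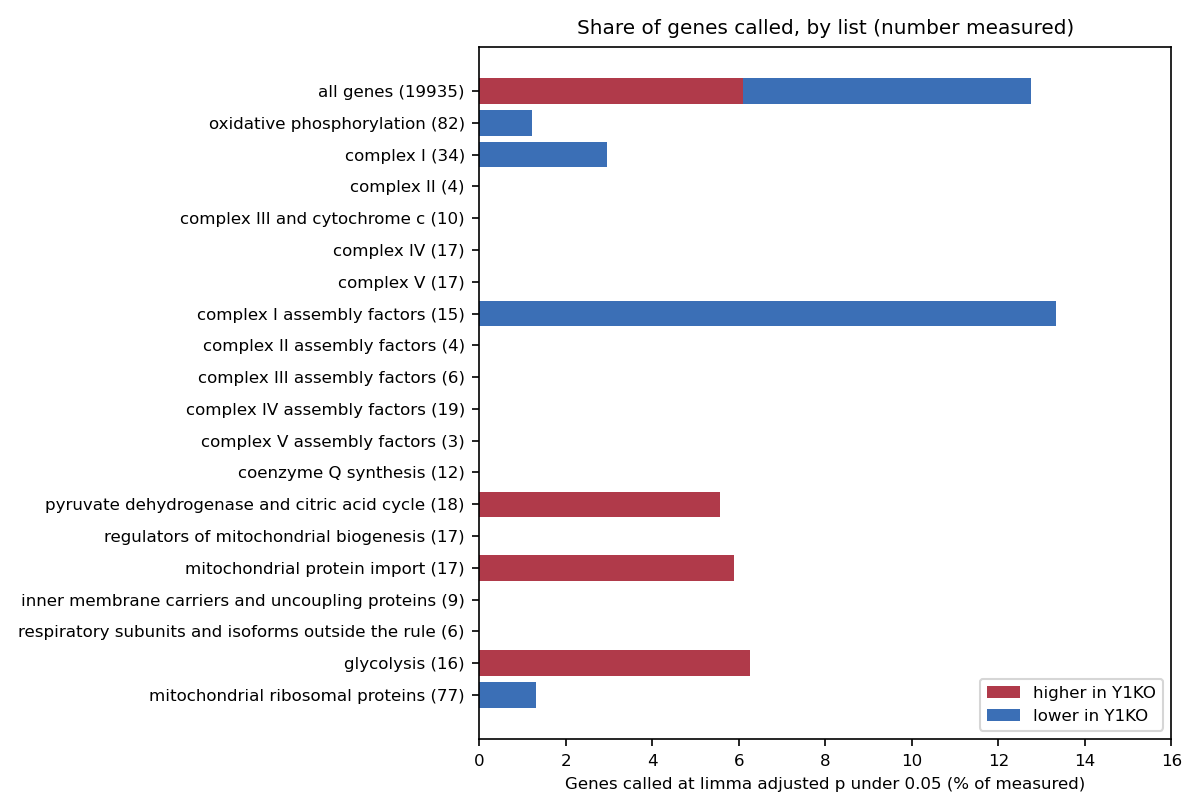
Share of measured genes called higher (red) or lower (blue) in Y1KO at a limma adjusted p under 0.05 (percent, horizontal axis from 0), for all genes, the 82 respiratory subunit genes, each complex and the lists of related mitochondrial genes and glycolysis, with the number measured in brackets. The members stand at 1.22% lower and 0% higher, and all genes at 6.64% and 6.1%.

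Among the WT arrays, 1 stood apart in these genes. WT replicate 3 held the highest WT value for 56 of the 82 genes (68.3%), against 21.7% of all genes, and the lowest for 11 (13.4%), against 35.7%. WT replicate 2 held the lowest value for 35 of them (42.7%), against 24.9% of all genes. Set against each gene's WT mean, the median of the members was -0.03, -0.08, 0.14 and -0.03 on WT replicates 1 to 4, and 0.06 on both Y1KO arrays. The medians of all genes on the same arrays lay between -0.03 and 0.01.

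The members' median on both Y1KO arrays thus lay between those of the WT arrays. WT replicate 3 was the highest WT array for 26 of 34 genes of complex I, 14 of 17 of complex V, 7 of 10 of complex III and 9 of 17 of complex IV, but for 0 of 4 of complex II. Its largest deviations upward were in Ndufs5, at 0.49 above the WT mean, Uqcrh, at 0.38, and Ndufa1 and Ndufv2, both at 0.34. The 11 genes for which it was the lowest WT array included Uqcrc1, the other core scaffold protein of complex III, at -0.40. The rest were Atp5a1, Atp5b, Atp5d, Cyc1, Ndufs1, Ndufs7, Ndufv1, Cox4i2, Cox6a2 and Cox8b. Of the 6 core subunits of complex I, WT replicate 3 was the lowest WT array for 3 and the highest for 3.

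Ndufs5 shows this pattern most clearly. It read 8.35, 8.26, 8.86 and 7.99 in WT and 8.52 and 8.51 in Y1KO. The Y1KO arrays were inside the WT range, and the difference of 0.15 had a 95% interval of -0.31 to 0.61. Without WT replicate 3 the median difference of the 82 genes was 0.08 in place of 0.06, with 63 in place of 54 above 0, and 2 members were called, Ndufs4 and Atp5g1. The spread between the Y1KO arrays was small, with a median SD of 0.029 for the members and 0.078 for all genes, whereas in WT it was 0.125 for both. The SD of 2 arrays is itself uncertain.

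**Figure D4:**
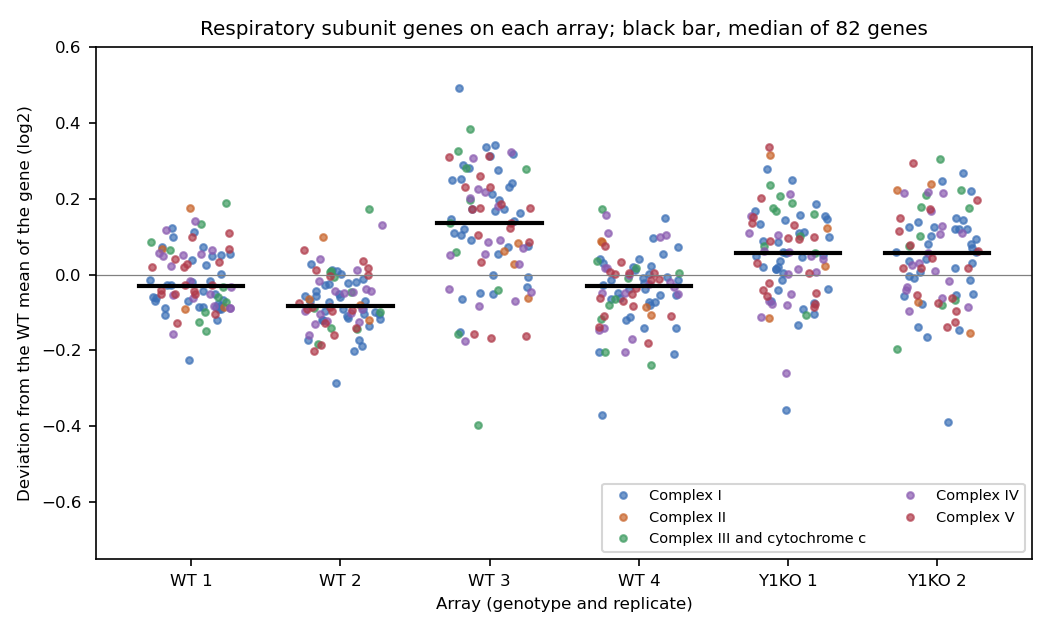
Deviation of each of the 82 genes from its WT mean (log2, vertical axis) on the 6 arrays (horizontal axis), coloured by complex, with a black bar at the median. The bar stands at 0.14 on WT replicate 3, at -0.08 on WT replicate 2 and at 0.06 on both Y1KO arrays.

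Members with and without the promoter letters were set side by side, as a description. The median difference was 0.08 in the 11 genes with the nuclear respiratory factor 1 letters and 0.05 in the matched genes without them. It was 0.11 against 0.04 for the ETS letters, 0.04 against 0.06 for the Yy1 letters and 0.16 against 0.05 for the estrogen-related receptor letters, the last over 4 genes. Of the 4 genes printed first, Sdhb, Atp5g2, Cycs and Ndufa11 differed by 0.28, 0.07, 0.04 and 0.13. None was called.

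The proteins that build the complexes were read from lists of assembly factors. Of 15 measured complex I assembly factors 2 fell and 0 rose, with a median of -0.01, and the share called, 13.3%, was near the 12.7% of all genes called in either direction. Ndufaf2, which binds a late intermediate of complex I, read 7.74, 7.56, 8.02 and 7.73 in WT and 7.23 and 7.33 in Y1KO, a difference of -0.48 (limma adjusted p = 0.0425). Tmem126b, part of the assembly complex for the membrane arm, read 6.91, 6.97, 7.13 and 7.04 in WT and 6.64 and 6.60 in Y1KO, a difference of -0.39 (0.0267). The groups did not overlap in either gene. Both calls were lost when either Y1KO array or WT replicate 4 was left out, and that of Ndufaf2 also without WT replicate 1, with the limma adjusted p reaching 0.243 and 0.200. Both were also lost with quantile normalization, median centring, no moderation and the replicate block, so that Ndufaf2 was called in 8 and Tmem126b in 9 of the 16 alternatives.

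Ndufaf4 was the next by p, with a difference of -0.27, not called. None of the 4, 6, 19 and 3 measured assembly factors of complexes II, III, IV and V was called, and their medians were -0.03, 0.06, 0.06 and 0.05. Of the 12 genes of coenzyme Q synthesis none was called either, with a median of 0.03 and 0.31 for Coq9, a lipid-binding protein of that pathway. The 13 subunits that mitochondrial DNA encodes were not analysed here.

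Upstream of the chain, 1 of 18 measured genes of pyruvate dehydrogenase and the citric acid cycle rose, Suclg1, the alpha subunit of succinyl-CoA ligase. It read 8.75, 8.65, 8.86 and 8.74 in WT and 9.12 and 9.22 in Y1KO, a difference of 0.42 (limma adjusted p = 0.0203). The groups did not overlap, and the call was lost without either Y1KO array (highest limma adjusted p 0.192), without moderation and with the replicate block. The list's share of genes that rose, 5.56%, was below the 6.1% of all genes. Fh1 (fumarase) and Pcx (pyruvate carboxylase) had differences of -0.35 and -0.28 and were not called. The median of the list was 0.04.

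Regulators of mitochondrial biogenesis were not called in any of 17 cases, and their median was 0.04. Among the 3 of smallest p, Tfam, which packages and transcribes mitochondrial DNA, differed by -0.21, Tfb1m by -0.14 and Tfb2m by 0.13. Of the factors whose promoter letters were searched, Nrf1 differed by -0.11, Gabpa by 0.03 and Esrra by 0.08. Yy1, whose letters were searched too, is in this list and was likewise not called. Of 17 protein import genes 1 rose, Timm17b of the inner membrane translocase (0.30, limma adjusted p = 0.0479), a share of 5.88%, near the 6.1% of all genes that rose. This call was lost in each of the 6 fits that leave out 1 array and with the replicate block. Timm21 and Timm50 differed by 0.56 and -0.26 and were not called.

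None of the 9 carriers and uncoupling proteins was called, and Vdac3, a pore of the outer membrane, differed by -0.34, Slc25a5, which exchanges ADP for ATP, by 0.16 and Ucp3 by 0.12. Of 6 respiratory subunits and isoforms outside the symbol rule none was called. Ndufa4l2, known as a hypoxia-inducible relative of Ndufa4, had a difference of 1.20 with WT arrays from 4.98 to 7.26 and Y1KO arrays at 6.89 and 8.11. The groups overlapped, and the limma adjusted p was 0.231. Higd1a differed by 0.75 and Ndufab1, the acyl carrier protein of complex I, by 0.11.

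In glycolysis, the other source of ATP, 1 of 16 measured genes rose (6.25%, near the 6.1% of all genes), and the median was 0.29, against 0.06 for the respiratory subunits. WT replicate 1 stood apart in this list, being the highest WT array for 14 of the 16 genes. The mean deviation of the list from the WT mean was 0.33 on that array, against 0.23 and 0.54 on the Y1KO arrays, and for 9 of the 16 genes the Y1KO mean lay inside the WT range. Aldoc, an aldolase, read 6.63, 5.61, 6.36 and 6.53 in WT and 7.13 and 7.93 in Y1KO, and it was 2.37-fold higher (difference 1.25, limma adjusted p = 0.0274). The groups did not overlap, but the call was lost without WT replicate 3 or without Y1KO replicate 2 (highest limma adjusted p 0.279), and also with trend and robust options, without moderation and with the replicate block. Hk2 and Pfkm, a hexokinase and a phosphofructokinase, differed by 0.56 and 0.37 and were not called.

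Of the 77 mitochondrial ribosomal protein genes, which make the mitochondrially encoded subunits, 1 fell (1.30%) and 0 rose, with a median of 0.04. Of all genes 6.64% fell and 6.1% rose. Mrps6 read 8.85, 9.23, 9.39 and 9.05 in WT and 7.90 and 7.59 in Y1KO, 2.62-fold lower (limma adjusted p = 0.00133). Its RefSeq gene model overlaps that of Slc5a3, the sodium and myo-inositol transporter, which fell 6.20-fold (limma adjusted p = 0.000435), so signal of the overlapping models may not be separable. Both were called in each of the 6 fits that leave out 1 array, and not without moderation. The next by p, Mrpl41 and Mrpl51, differed by -0.37 and -0.29 and were not called.

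The targeted gene, Npy1r, read 3.11, 2.84, 2.78 and 3.00 in WT and 2.89 and 2.83 in Y1KO. Its WT mean stood at percentile 9.42, so its level does not tell the genotypes apart and checks no label here. Array medians lay between 5.30 and 5.37, and correlations over genes were 0.9911 to 0.9958 within WT, 0.9961 within Y1KO and 0.9762 to 0.9875 across. All 7 measured osteoblast markers lay at or above percentile 82.1 in WT. None was called, but all 7 differences were above 0, with a median of 0.43, 0.47 for Ibsp and 1.66 for Dmp1, and for 6 of the 7 both Y1KO arrays lay above all WT arrays (17.5% of all genes did). Their mean level was 10.74 to 11.70 on the WT arrays, with WT replicate 2 lowest for all 7 markers, and 11.96 and 12.08 on the Y1KO arrays.

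Markers of some other cells moved with genotype. For scale, 6.1% of all genes rose and 6.64% fell. Of 10 macrophage markers 8 rose, with 0.81 for Adgre1 and 1.03 for Fcgr3, and their mean level was 5.46 to 5.71 on the WT arrays and 6.05 and 6.51 on the Y1KO arrays. Of 9 smooth muscle and pericyte markers 7 fell, with -1.93 for Actg2 and -1.32 for Mylk, and 1 rose, Cspg4, with 1.16. The mean level of the 9 markers was 8.53 to 8.84 in WT and 7.80 and 7.71 in Y1KO. Of 8 adipocyte markers 3 fell, with -1.45 for Pparg and -1.42 for Cebpa, and their mean level was 5.47 to 5.85 in WT and 4.90 and 4.94 in Y1KO. No osteoclast, granulocyte, erythroid, endothelial or skeletal muscle marker was called, and 4 of 5 granulocyte markers lay below percentile 25 in WT. In bulk RNA, fewer cells of a type and less RNA per cell cannot be told apart, and the part of these cells in the values of the respiratory genes was not tested.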

How the data were processed

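Sorted cells were measured on 6 single-colour arrays. The deposited log2 expression values were used as the authors gave them. The submitters' processing notes name RMA and limma without versions. The authors' build was not given in the sources used. Precision is limited by the number of arrays. Of 28815 probe sets, 21780 had 1 gene symbol in the platform annotation, 1605 several and 5430 were not listed. For the 998 genes with several probe sets, that of highest mean was kept.

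Y1KO was compared with WT by lmFit and eBayes (limma 3.58.1, R 4.3.3), two-sided, with Benjamini-Hochberg adjustment over 19935 genes, and the procedure was tested on simulated data. Percentiles are those of the WT mean among all genes. Intervals are 95% limma intervals. Replicate numbers were not used as pairs. Named members were the 5 of smallest p per complex, called members past 0.5 and the isoform families, with the 3 of smallest p per pathway list and 2 per marker list. Other members, the neighbours of Ndufs4 and Mrps6, and Nrf1, Gabpa, Esrra, Yy1 and Cspg4 were named after their values were seen. The members and lists were chosen with earlier results of these data known. Promoters were searched with Python 3.11.15. Alternatives were other normalizations, filters, probe set rules and model settings, and each array left out.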

Additional observations from a re-analysis of the deposited data

Results flagged for a closer look

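In 5 of the 82 genes the highest WT array stood far from the other WT arrays, and in all 5 it was WT replicate 3. It read 9.89 for Cox7b and 9.86 for Ndufv2, 6.05 for Ndufb10 and 6.55 for Ndufb2, and 8.34 for Uqcr10. Chance marks about 1 group in 20. The genes belong to complexes I, III and IV, and none of them was called between genotypes.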

How the results depend on the processing

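Over the 16 alternatives, of which the probe set of lowest mean was chosen after seeing the data, the median difference of the members lay between 0.02 and 0.11, and 1.73% to 29.1% of all genes were called. The count of members higher in Y1KO was 1 (Atp5g1) with median centring, with a filter at percentile 60, with array weights and without WT replicate 3. The count lower was 0 with median centring, without moderation and with the replicate block. Leaving out each array in turn gave 0 to 1 members higher and 0 to 1 lower. The complex II median was 0.13 with median centring and 0.15 with the replicate block, and the complex IV median was 0.0949 with median centring. Median centring moves the difference of every gene by the same amount, and the median over all genes became 0.07 in place of 0.01. With the block, WT replicates 3 and 4 do not enter the difference. Beyond this, the cause of these changes was not tested. Ndufs4 was called in 10 of the 16, with limma adjusted p from 0.0111 to 0.191. Of 566 values of the 36 named members, 0 reversed a call and 22 changed sign while uncalled in both. Called genes were higher in 47.9% of cases, against 60.5% with median centring. In all, 2541 genes were called, against 344 without moderation, 944 without Y1KO replicate 1, 487 without Y1KO replicate 2 and 2181 with the block.

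The genotypes share replicate numbers 1 and 2 only, so WT replicates 3 and 4 do not enter a difference fitted with the block. Deviations of same-numbered arrays correlated at 0.0127 and -0.204. The deviations of 2 Y1KO arrays from their mean are equal and opposite, so these values cannot settle whether the numbers pair the arrays. With the block Ndufs4 had a limma adjusted p of 0.142. With 2 Y1KO arrays, the precision for small changes is low. Probe sets near background give differences that are too small, and filters at percentiles 40 and 60 left 79 and 73 members.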
